A study of Mus musculus with 6 samples.

Results

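Solute carrier transporters of mouse cortical neurons were examined in RNA bisulfite sequencing (RNA BS-seq) libraries over 6 h of depolarization with KCl. The members were the genes whose symbol starts with Slc and a number and which had 5 or more cytosines that were listed as methylated candidates with a coverage of 20 or more in each of the 6 libraries, called shared positions here. Of the 247 Slc genes with any listed cytosine, 27 fulfilled this rule, among 2748 genes of the whole series that had 5 or more shared positions. A further 40 Slc genes had 1 to 4 shared positions and 180 had none. The 27 members held 1461 of 214659 shared positions, of which 1039 lay in the coding sequence (CDS), 399 in the 3′UTR, and 23 in the 5′UTR, all on the strand of the gene, and 8 also named another gene. The member nearest the limit was Slc7a5 with 5 positions and a median of 436 to 590 reads per position in the single libraries. Among those just outside with 4 positions were Slc4a3 (490 to 700 reads), Slc6a6 (176 to 490 reads), and Slc20a1 (324 to 1143 reads).

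Solute carriers are membrane proteins that move amino acids, transmitters, sugars, ions, metals, and metabolites across the plasma membrane and the membranes of organelles, and each family of the series has its own typical substrates. In cortex they take up glutamate and GABA after release, set the chloride gradient on which inhibition depends, bring in glucose and amino acids, and exchange ATP, phosphate, and metabolites with the mitochondria. 5-methylcytosine (m5C) is a methylated base that NSUN family enzymes place on some cytosines of RNA, and RNA BS-seq reads it as a cytosine that bisulfite did not convert.

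The cultures were prepared from the cortex of WT C57BL/6 mouse embryos at E16.5, male and female pooled, and were kept 7 days in vitro. All groups were silenced on day 6 overnight with 1 μM tetrodotoxin, which blocks sodium channels, and 100 μM DL-AP5, which blocks NMDA receptors, and were then depolarized with KCl at 55 mM, for 2 h or 6 h or not at all (0 h). Each time point had 2 biological replicates, giving 6 libraries of poly(A) RNA, and the 0 h group was therefore also a silenced group. The label names the cells as neurons, but the cultures also held glial transcripts, as given below with the markers.

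For each library the deposited list gave the reads covering a cytosine and the reads in which it was not converted, which give the methylation level as their percentage. A list held only cytosines with at least 1 unconverted read and a coverage of at least 10, so deeply covered cytosines were favoured and low levels were those of cytosines with a read that was not converted. The libraries listed 1564646 to 2380612 positions with a median coverage of 324 to 480 reads. Over cytosines covered by at least 5000 reads and with a level under 1%, 0.0838% to 0.0870% of the reads were unconverted in 5 libraries and 0.115% in the 6 h replicate 1 library, which stood apart. In this library 11 member positions passed the standard filter of the study (coverage of at least 20, level of at least 10%, at least 6 methylated reads), against 1 to 3 in the others. Methylation changes called at 6 h are therefore also given without it, in some cases as the change alone.

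The cytosines on which the methylation results turn are shown as windows of 21 bases from the mm10 genome (GRCm38), 5′ to 3′ on the strand of the transcript, with the measured cytosine as the capital letter. The first pair passed the standard filter in both replicates of a time point and belongs to members. The next group belongs to members with lower levels that differed between time points, and the last group to Slc genes outside the member rule whose cytosine passed the filter, where that of Slc6a7 is not shown.
Slc25a4, chr8:46209134, minus strand, CDS: actgtctcacCaagatcttca
Slc25a23, chr17:57045638, minus strand, CDS: gcccgcaggtCtccatggtgg
Slc25a11, chr11:70645560, minus strand, CDS: ttaggattgcCagggaagaag
Slc12a5, chr2:164976551, plus strand, CDS: ttggcacgatCgagatcctgc
Slc38a10, chr11:120105178, minus strand, CDS: gcctctcatcCagagcaggag
Slc43a2, chr11:75577350, plus strand, 3′UTR: tttctgttacCaggagcatct
Slc35e1, chr8:72483202, minus strand, 3′UTR: ggtgccaaagCagggcctggg
Slc39a1, chr3:90251701, plus strand, CDS: gttccccttgCaagagttcat
Slc25a51, chr4:45398952, minus strand, 3′UTR: cggggcatctCaggctcattc

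Coverage stands for the amount of a transcript. The value of a gene was the median coverage over its shared positions, divided by the size of the library (scaled reads per position), and it was tested with the quasi-likelihood test of edgeR over all 2748 genes with Benjamini-Hochberg adjustment at 0.05. Since coverage is counted per base, levels of different members can be set beside each other on this scale, over the shared positions alone. In such bulk libraries, fewer cells of a type and less RNA per cell cannot be told apart.

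The most marked increases were those of Slc38a2 (glutamine and other neutral amino acids), Slc2a3 (the glucose transporter of neurons), Slc25a3 (mitochondrial phosphate), and Slc6a17 (a carrier of synaptic vesicles), and the most marked decreases those of Slc6a11 (GABA), Slc25a11 (oxoglutarate and malate), and Slc12a5 (potassium and chloride). At 2 h vs. 0 h, 7 of the 27 members changed (25.9%, against 22.6% of all genes), 4 of them upwards (14.8%, all genes 12.7%) and 3 downwards (11.1%, all genes 9.9%). Of the members, 17 changed at 6 h vs. 0 h (63%, all genes 56.7%), 6 upwards (22.2%, all genes 29.1%) and 11 downwards (40.7%, all genes 27.6%). A change from 2 h to 6 h was called for 13 members (48.1%, all genes 45.9%), 4 upwards (14.8%, all genes 22.5%) and 9 downwards (33.3%, all genes 23.5%). The shares of members called were thus near the background of all genes, with more downward calls at 6 h. The median log2 change of the members was -0.05, -0.16, and -0.04 in these comparisons, against -0.01, 0.02, and 0.00 for all genes. In total, 18 members changed in at least 1 comparison and 9 in none. The comparisons share their control libraries and are not independent of each other.

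**Figure D1:**
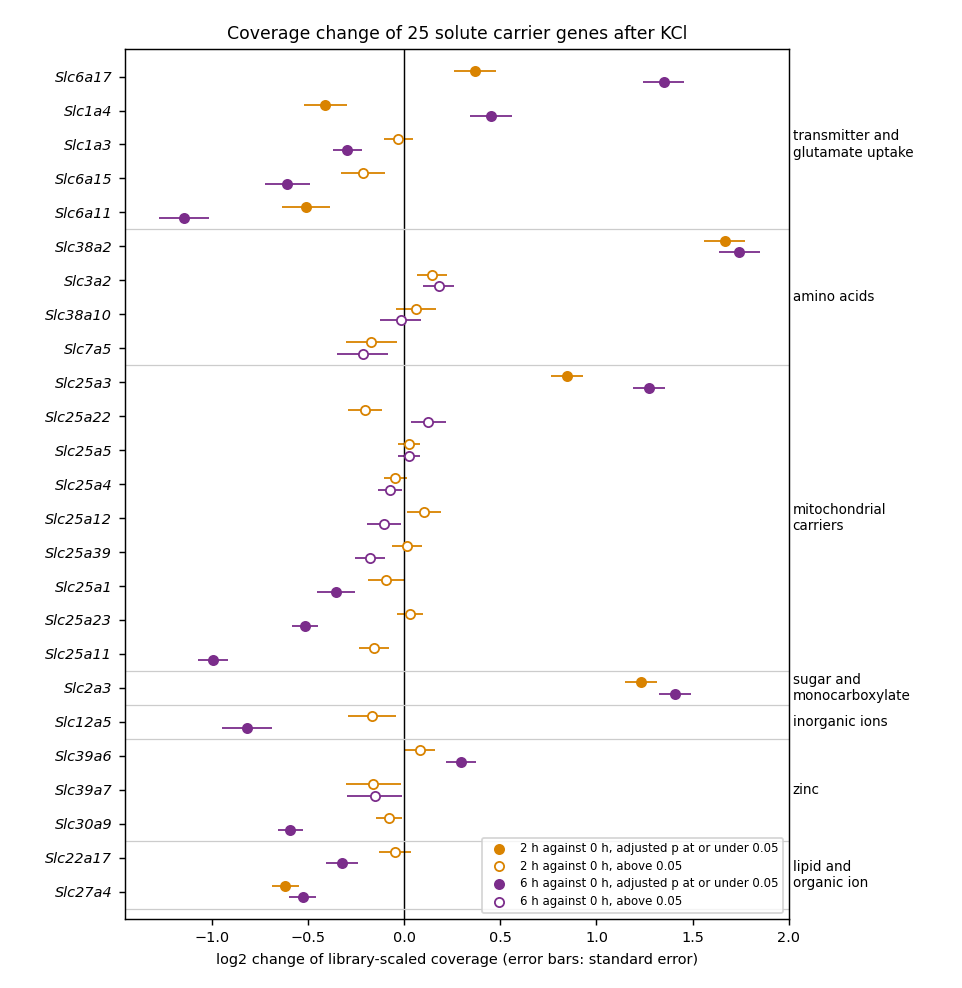
Log2 change of library-scaled coverage for 25 members at 2 h vs. 0 h and 6 h vs. 0 h, with standard errors from edgeR as bars and filled points for an adjusted p of at most 0.05. The changes at 6 h run from -1.14 for Slc6a11 to 1.74 for Slc38a2, and 16 of the points at 6 h and 7 at 2 h are filled.

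Carriers for transmitters and related amino acids at the membrane of neurons and glia moved in both directions. The group, formed by gene family, had 6 members among 15 listed Slc genes and includes Slc6a17, a carrier of synaptic vesicles. Of these members, 2 rose, Slc6a17 among them, and 4 fell at 6 h vs. 0 h. Likewise 2 rose and 4 fell at 6 h vs. 2 h. At 2 h vs. 0 h, 1 rose and 2 fell. Its median log2 change was -0.15 at 2 h and -0.45 at 6 h.

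Slc6a11, a GABA transporter mainly of astrocytes, had 1170 and 914 scaled reads per position (0 h), 724 and 741 (2 h), and 474 and 471 (6 h). The groups did not overlap and followed each other downwards. Its log2 change was -0.51 ± 0.13 (SE, adjusted p = 0.0281) at 2 h and -1.14 ± 0.13 (adjusted p = 0.000351) at 6 h, which is 2.21-fold lower. The call at 2 h was lost with a coverage minimum of 100 (log2 -0.38, adjusted p = 0.110), without 0 h replicate 1 (log2 -0.32, adjusted p = 0.122), without 6 h replicate 1 (adjusted p = 0.0636), and without 6 h replicate 2 (adjusted p = 0.0638), which enter through the shared estimate of the spread. At 6 h vs. 2 h its log2 change was -0.63 ± 0.13 (adjusted p = 0.00718), with an adjusted p of 0.0521 without 6 h replicate 2.

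Slc1a3, the glutamate transporter of astrocytes and radial glia, was the member with the most shared positions (328). Its scaled reads per position were 3298 and 3408 (0 h), 3413 and 3155 (2 h), and 2864 and 2604 (6 h). The 6 h libraries lay below the others, and 0 h and 2 h overlapped. The log2 change was -0.29 ± 0.08 (adjusted p = 0.0144) at 6 h vs. 0 h, with 301 of 328 positions lower, and -0.26 ± 0.08 (adjusted p = 0.0278) at 6 h vs. 2 h. The first of these calls was lost without 0 h replicate 1 (log2 -0.32, adjusted p = 0.0550), without 0 h replicate 2 (-0.30, 0.0626), and without 6 h replicate 2 (-0.23, 0.110). The second was lost without 0 h replicate 1 (-0.27, 0.0567), without 6 h replicate 1 (-0.34, 0.0501), and without 6 h replicate 2 (-0.20, 0.178).

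Astrocyte markers moved in the same direction as Slc1a3 and Slc6a11. Of the 12 genes of the astrocyte list, all had a listed cytosine and 6 could be tested, among them Slc1a3 itself. None rose, 2 fell at 2 h, and 5 fell at 6 h vs. 0 h, with a median log2 change of -0.14 and -0.67. The summed scaled coverage of these 6 genes was 15230 to 16334 (0 h), 14026 to 14126 (2 h), and 10763 to 11218 (6 h). Gfap, Aqp4, S100b, Sox9, Slc1a2, and Slc4a4 had too few shared positions for the test. The part of this shift in the values of Slc1a3 and Slc6a11 was not tested.

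The neuron and inhibitory neuron markers moved in both directions. Of 8 neuron markers 7 were tested, and 3 rose (Nefm, Nefl, and Snap25) and 1 fell (Tubb3) at 6 h vs. 0 h. The 7 had a summed scaled coverage of 34712 to 35855 (0 h), 31240 to 31990 (2 h), and 33193 to 34591 (6 h). Tubb3 was the largest part of this sum at 0 h, with 16848 and 15157 scaled reads. It had 8465 and 7637 at 2 h and 7059 and 7724 at 6 h (log2 -0.99 and -1.11 vs. 0 h). The sum thus joins opposite changes and does not tell whether neuron content was stable. Of the 9 inhibitory neuron markers, 3 could be tested, and 2 rose and 1 fell at 6 h vs. 0 h. Gad1, which makes GABA, and Sst, a peptide of inhibitory neurons, rose at 6 h by 1.22 and 1.11 on the log2 scale. Of 9 excitatory neuron markers 3 were tested, and 1 rose at 6 h. None of the 8 microglia markers and none of the 8 endothelial and pericyte markers could be tested, and C1qa, C1qc, Csf1r, and Tyrobp of the former and Cldn5, Flt1, Cdh5, Rgs5, and Slco1a4 of the latter had no listed cytosine. Of 9 oligodendrocyte lineage markers, only Olig1 was tested, which fell at 2 h (log2 -0.65) and rose at 6 h vs. 0 h (0.23).

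The other members of the group carry amino acids. Slc6a17, a neutral amino acid transporter of synaptic vesicles, had 719 and 613 scaled reads per position (0 h), 923 and 801 (2 h), and 1667 and 1733 (6 h). The groups did not overlap, and the larger step came between 2 h and 6 h. It rose 2.55-fold at 6 h vs. 0 h (log2 1.35 ± 0.11, adjusted p = 8.33e-05) and by 0.98 ± 0.11 (adjusted p = 0.000595) at 6 h vs. 2 h. Its call at 2 h (log2 0.37 ± 0.11, adjusted p = 0.0493) was at the threshold and was lost in 9 of 14 alternatives. These included leaving out 0 h replicate 1 (0.49, 0.0804), 0 h replicate 2 (0.26, 0.238), 2 h replicate 1 (0.26, 0.123), 6 h replicate 1 (0.37, 0.0988), or 6 h replicate 2 (0.37, 0.10).

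Slc1a4, an exchanger of serine, alanine, and other small amino acids, moved in both directions. It had 815 and 800 scaled reads (0 h), 582 and 635 (2 h), and 1205 and 1005 (6 h), and the groups did not overlap. It fell at 2 h (log2 -0.41 ± 0.11, adjusted p = 0.0391) and was higher than at either earlier time point at 6 h (0.45 ± 0.11, adjusted p = 0.0106 vs. 0 h, and 0.86 ± 0.11, adjusted p = 0.00114 vs. 2 h). The decrease at 2 h was not called without 0 h replicate 1 (-0.39, 0.175), 0 h replicate 2 (-0.42, 0.144), or 2 h replicate 1 (-0.35, 0.0657), nor with the replicate block (-0.41, 0.0514). The increase at 6 h vs. 0 h was not called without 0 h replicate 1 (0.47, 0.0628), 0 h replicate 2 (0.41, 0.0773), or 6 h replicate 1 (0.32, 0.0803).

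Slc6a15, which takes up branched-chain amino acids and proline, had 1288 and 1591 scaled reads (0 h), 1316 and 1164 (2 h), and 963 and 925 (6 h). Only the 6 h libraries were apart from the rest. The log2 change was -0.61 ± 0.12 (adjusted p = 0.00397) at 6 h vs. 0 h and -0.39 ± 0.12 (adjusted p = 0.0299) at 6 h vs. 2 h. The latter call was lost without 6 h replicate 1 (-0.42, 0.104) or 6 h replicate 2 (-0.37, 0.149).

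Among transporters of amino acids for general supply, 1 of 4 members changed. Slc38a2, the sodium-coupled carrier for glutamine and other neutral amino acids, had 1139 and 1101 scaled reads per position (0 h), 3889 and 3224 (2 h), and 3925 and 3572 (6 h). All libraries after KCl lay about level with each other and far above 0 h. It rose 3.17-fold at 2 h (log2 1.67 ± 0.11, adjusted p = 0.000125) and 3.34-fold at 6 h (1.74 ± 0.11, adjusted p = 3.76e-05), with all 43 positions higher at either time point, and 6 h vs. 2 h gave 0.08 ± 0.10 (adjusted p = 0.575). Slc3a2, the heavy chain shared by several exchangers, had 1580 and 1653 scaled reads (0 h), 1687 and 1889 (2 h), and 1828 and 1831 (6 h), with log2 changes of 0.15 (adjusted p = 0.24) and 0.18 (adjusted p = 0.0941). Slc7a5, a light chain that pairs with it, had 463 to 622 scaled reads over the 6 libraries, with overlapping groups. Slc38a10 had 1799 to 2157 scaled reads, again overlapping, and neither Slc7a5 nor Slc38a10 was called.

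**Figure D2:**
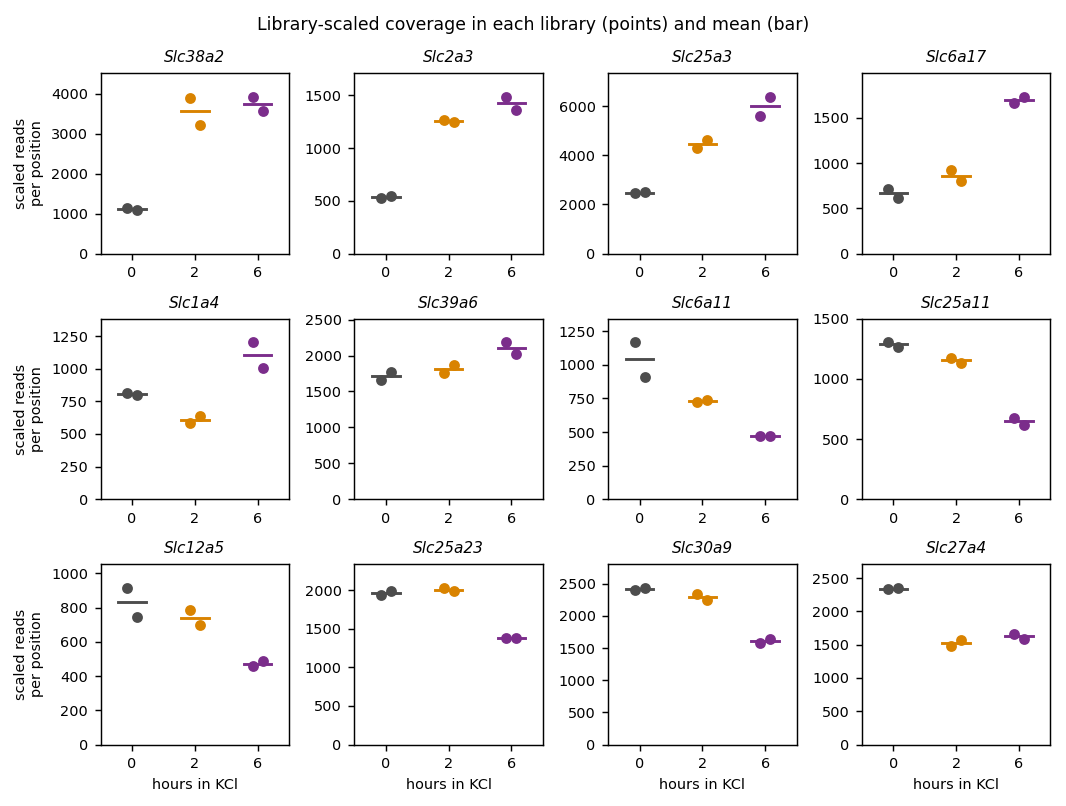
Scaled reads per position in each library (points) with the mean of both replicates (bar) for selected members by hours in KCl, each on an axis that starts at 0. Slc38a2 and Slc2a3 reach their higher level by 2 h, Slc25a3 and Slc6a17 rise further from 2 h to 6 h, and Slc25a11 and Slc25a23 are low at 6 h alone.

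Mitochondrial carriers were the largest group, with 9 members and 704 shared positions among 40 listed genes, and they did not move together. At 2 h vs. 0 h, 1 rose and none fell. At 6 h vs. 0 h, 1 rose and 3 fell, and at 6 h vs. 2 h, 2 rose and 2 fell. The median log2 change was 0.02 at 2 h and -0.10 at 6 h.

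The carriers that supply the ATP synthase differed from each other. Slc25a3, which brings phosphate into the matrix, had 2446 and 2510 scaled reads per position (0 h), 4305 and 4623 (2 h), and 5586 and 6377 (6 h). The groups followed each other upwards with no overlap, and at each step all 183 positions were higher. It rose 1.80-fold at 2 h (log2 0.85 ± 0.08, adjusted p = 0.000688), 2.41-fold at 6 h vs. 0 h (1.27 ± 0.08, adjusted p = 4.45e-05), and by 0.42 ± 0.08 (adjusted p = 0.00574) at 6 h vs. 2 h. Slc25a4 and Slc25a5, the ADP/ATP carriers, kept nearly even values. Slc25a4 had 4433 and 4559 scaled reads (0 h), 4378 and 4338 (2 h), and 4361 and 4187 (6 h) (log2 -0.04 ± 0.06 and -0.07 ± 0.06), and Slc25a5 lay between 4202 and 4353 in all 6 libraries (log2 0.03 ± 0.06 at both time points). Slc25a4 and Slc25a5 are close in sequence, and reads that fit both equally were not kept in the alignment of the study, so their coverage is that of reads placed at 1 locus.

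The carriers of the malate-aspartate shuttle, which passes reducing equivalents into mitochondria, and of glutamate also differed. Slc25a11, the oxoglutarate and malate carrier, had 1306 and 1270 scaled reads (0 h), 1178 and 1133 (2 h), and 675 and 621 (6 h). The 6 h libraries stood well below the others. Its log2 change was -0.16 ± 0.08 (adjusted p = 0.191) at 2 h and -0.99 ± 0.08 (adjusted p = 8.33e-05, 1.99-fold lower) at 6 h, with all 24 positions lower. Slc25a12, the aspartate and glutamate carrier, had 1686 and 1818 scaled reads (0 h), 1751 and 2012 (2 h), and 1653 and 1607 (6 h) and was not called. Slc25a22, a glutamate carrier, had 2457 and 2454 scaled reads (0 h), 1960 and 2314 (2 h), and 2691 and 2672 (6 h). It was lowest at 2 h and was called at 6 h vs. 2 h only (log2 0.33 ± 0.09, adjusted p = 0.0214). That call was lost without any 1 of 5 libraries, namely 0 h replicate 1 (0.33, 0.0543), 0 h replicate 2 (0.30, 0.0585), 2 h replicate 1 (0.19, 0.0724), 6 h replicate 1 (0.32, 0.0993), and 6 h replicate 2 (0.33, 0.0989), and without 2 h replicate 2 the decrease at 2 h was called instead (-0.32, 0.0120).

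The remaining mitochondrial carriers were lower at 6 h or were not called. Slc25a23, a calcium-regulated carrier of ATP-Mg and phosphate, had 1939 and 1991 scaled reads (0 h), 2031 and 1983 (2 h), and 1377 and 1375 (6 h). Its replicates were close, and it fell at 6 h alone (log2 -0.51 ± 0.07, adjusted p = 0.00065 vs. 0 h, and -0.54 ± 0.07, adjusted p = 0.000925 vs. 2 h). Slc25a1, which exports citrate, had 1559 and 1351 scaled reads (0 h), 1295 and 1438 (2 h), and 1101 and 1175 (6 h) (log2 -0.36 ± 0.10, adjusted p = 0.0180 at 6 h vs. 0 h). This call was lost without 0 h replicate 1 (-0.25, 0.118), 6 h replicate 1 (-0.31, 0.114), or 6 h replicate 2 (-0.40, 0.0602). Slc25a39, which is needed for mitochondrial glutathione, had 803 to 929 scaled reads and was not called.

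Among sugar, inositol, and monocarboxylate carriers, 1 of 2 members rose. Slc2a3, the glucose transporter GLUT3 of neurons, had 524 and 549 scaled reads per position (0 h), 1269 and 1248 (2 h), and 1486 and 1362 (6 h). The 0 h libraries were far below the rest. It rose 2.35-fold at 2 h (log2 1.23 ± 0.08, adjusted p = 0.000141) and 2.66-fold at 6 h (1.41 ± 0.08, adjusted p = 3.22e-05), with all 54 positions higher both times, and the further 0.18 ± 0.08 from 2 h to 6 h did not pass (adjusted p = 0.10).

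The only member of the inorganic ion carriers was Slc12a5, the potassium and chloride cotransporter KCC2, which lowers chloride in mature neurons. It had 916 and 746 scaled reads (0 h), 785 and 698 (2 h), and 457 and 488 (6 h). The 6 h libraries were apart from the others, while 0 h and 2 h overlapped. The log2 change was -0.17 ± 0.13 (adjusted p = 0.396) at 2 h, -0.82 ± 0.13 (adjusted p = 0.00164) at 6 h vs. 0 h, and -0.65 ± 0.13 (adjusted p = 0.00649) at 6 h vs. 2 h, and the last had an adjusted p of 0.0514 without 6 h replicate 1 (log2 -0.60).

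Of the 3 zinc transporters, 1 rose and 1 fell at 6 h. Slc30a9, a zinc transporter of mitochondria, had 2403 and 2440 scaled reads (0 h), 2337 and 2251 (2 h), and 1580 and 1635 (6 h). It fell at 6 h alone (log2 -0.59 ± 0.07, adjusted p = 0.000347), with all 14 positions lower. Slc39a6, a zinc importer of the plasma membrane, had 1662 and 1767 scaled reads (0 h), 1757 and 1872 (2 h), and 2187 and 2023 (6 h) (log2 0.30 ± 0.08, adjusted p = 0.0150). The call was lost without 0 h replicate 1 (0.25, 0.0880), 0 h replicate 2 (0.31, 0.0515), or 6 h replicate 1 (0.24, 0.109). Slc39a7, which releases zinc from the endoplasmic reticulum, had 378 to 471 scaled reads and was not called.

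Both lipid and organic ion carriers fell. Slc27a4, which takes up and activates fatty acids, had 2330 and 2355 scaled reads (0 h), 1484 and 1569 (2 h), and 1666 and 1589 (6 h). It had already reached its low level at 2 h (log2 -0.62 ± 0.07, adjusted p = 0.00134) and stayed there at 6 h (-0.53 ± 0.07, adjusted p = 0.000759), with 6 h vs. 2 h at 0.09 (adjusted p = 0.32). No other member was called downwards at 2 h and not called at 6 h vs. 2 h. Slc22a17, a receptor for the iron-carrying protein lipocalin 2, had 4275 and 4318 scaled reads (0 h), 3915 and 4395 (2 h), and 3626 and 3250 (6 h). It fell by 0.32 ± 0.08 on the log2 scale at 6 h vs. 0 h (adjusted p = 0.0140) and by 0.27 ± 0.08 at 6 h vs. 2 h (adjusted p = 0.0328). The first call was lost without 0 h replicate 1 (-0.33, 0.0719), 0 h replicate 2 (-0.34, 0.0593), or 6 h replicate 2 (-0.24, 0.106). The second was lost without 0 h replicate 1 (-0.27, 0.0732), 0 h replicate 2 (-0.30, 0.0540), 2 h replicate 2 (-0.22, 0.0519), 6 h replicate 1 (-0.35, 0.0509), or 6 h replicate 2 (-0.20, 0.202). Of the 24 listed genes of nucleotide sugar carrier families and the 6 of vesicular carrier families, none had enough positions to be a member. Slc6a17, a carrier of synaptic vesicles, is counted with its own family above.

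In order of the mean scaled level at 0 h, Slc25a4, Slc22a17, and Slc25a5 were highest and Slc1a3 followed, and the libraries of neighbouring members in this order did not overlap. Slc25a3 came next at 0 h, close to Slc25a22 and Slc30a9, and was above all other members at 6 h. Slc39a7, Slc2a3, and Slc7a5 were lowest at 0 h, and the libraries of Slc2a3 and Slc7a5 overlapped.

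The genes that work with these carriers give the setting of the changes. Ion pumps that supply the gradients were tested for 22 of 29 genes, of which 5 rose and none fell at 2 h, and 9 rose and 3 fell at 6 h vs. 0 h. The sodium pump subunit Atp1b1 rose at 6 h (log2 1.01), whereas Atp1b2, a subunit known from astrocytes, fell (-1.12). Of 33 membrane carriers without an Slc name 5 were tested, and none changed at 2 h, while 1 rose and 2 fell at 6 h. Of 16 regulators of transporters 5 were tested. The transcription factor Atf4, which drives genes of amino acid supply, rose by 2.14 ± 0.08 at 2 h and 1.89 ± 0.08 at 6 h on the log2 scale, and Bsg, a chaperone of lactate carriers, rose by 0.30 at 6 h. Of 15 activity-induced genes 4 were tested and all 4 rose at 2 h, with Fos at log2 7.14, Nr4a1 at 6.06, Nr4a3 at 3.44, and Homer1 at 2.81, which checks the labels of the time points.

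The 40 Slc genes with 1 to 4 shared positions were tested in a fit over all 4894 genes with at least 1. At 2 h vs. 0 h, 3 of them rose and 2 fell, against 24.2% of all genes called, 11.5% higher and 12.7% lower. By 6 h, 10 rose and 13 fell, against 57.6% of all genes, 28.4% higher and 29.2% lower. Between 2 h and 6 h, 12 rose and 12 fell, against 50.6% of all genes, 25.6% higher and 25% lower. Each value rests on few positions.

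Those just below the member rule and carriers of the same substrates are given here, chosen after their values were seen. Slc20a1, a phosphate importer, had scaled reads of 415 and 378 (0 h), 507 and 417 (2 h), and 1009 and 1090 (6 h), and rose at 6 h vs. 0 h by 1.44 on the log2 scale (adjusted p = 0.000109). Slc6a6, which takes up taurine, had 199 and 205 (0 h), 222 and 219 (2 h), and 470 and 467 (6 h), and rose by 1.25 (adjusted p = 0.000111). In both, the 6 h libraries were far above the rest. Slc6a8, which takes up creatine, fell at 2 h (log2 -0.48, adjusted p = 0.0384) and was higher at 6 h than at 0 h (0.91, adjusted p = 0.0008). Slc1a2, the main glutamate transporter of astrocytes, had 426 and 457 (0 h), 369 and 327 (2 h), and 248 and 204 (6 h) and fell at 6 h (log2 -0.93, adjusted p = 0.000987), in the direction of Slc1a3. Slc43a2 fell at 2 h and further at 6 h (log2 -1.65 and -2.67 vs. 0 h, adjusted p = 0.000867 and 5.46e-05).

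The coverage changes were traced along the transcripts at the single shared positions. In Slc25a3 the log2 change at 6 h vs. 0 h was between 0.71 and 1.46 at all 183 positions, which lie in the CDS. This gene has a pair of alternative exons, of which chr10:91121922-91122043 held 19 shared positions and chr10:91122207-91122331 held none, with 3 cytosines listed in 1 library only. Slc38a2 rose alike in its 3′UTR (median log2 1.78 over 41 positions) and its CDS (1.78 over 2 positions), and so did Slc2a3 (1.32 over 34 and 1.33 over 20). Slc25a11 fell by 1.03 over 20 positions of the 3′UTR and by 1.08 over 4 of the CDS. In Slc39a6 the 5 positions of the 3′UTR had a median of 0.45 and the 5 of the CDS 0.20, with ranges that did not overlap (0.36 to 0.51 and 0.16 to 0.20). These are descriptions without a test, since neighbouring positions share reads.

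**Figure D3:**
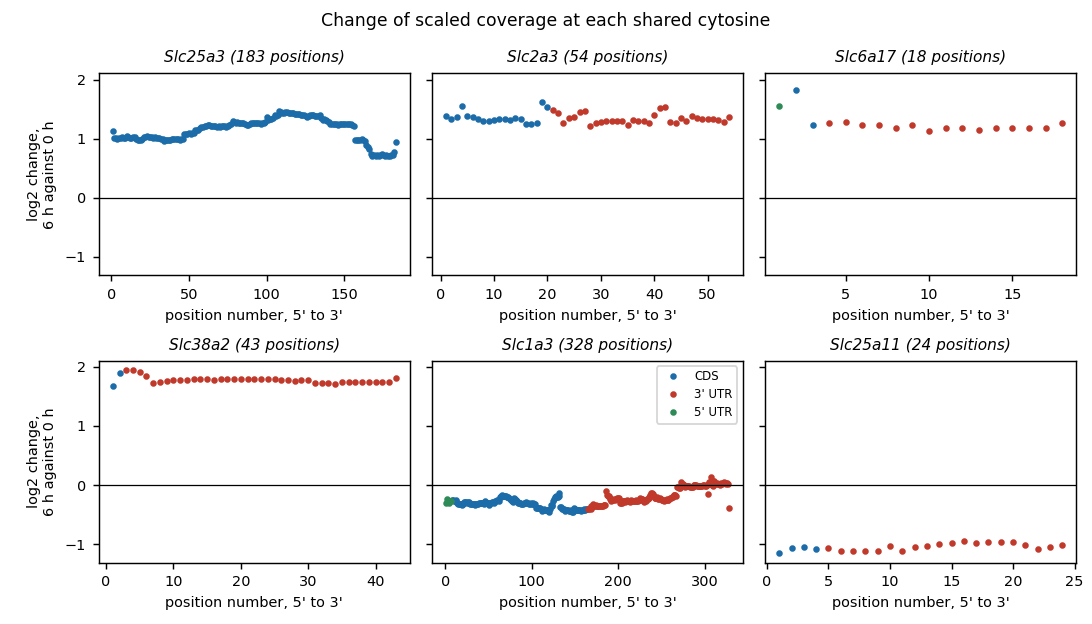
Log2 change of scaled coverage at 6 h vs. 0 h at each shared cytosine, in order from 5′ to 3′, coloured by mRNA segment, for selected members. All points of Slc25a3 lie above 0, and most points at the end of the 3′UTR of Slc1a3 lie around 0, except the last one, while its earlier ones lie below.

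In Slc1a3 and Slc25a4 the change differed along the 3′UTR. The 164 positions of Slc1a3 there fell into 3 blocks separated by steps of at least 2-fold in coverage between neighbouring positions. The first 103 positions had a median log2 change of -0.25 at 6 h vs. 0 h, close to the -0.31 of the 157 positions of the CDS. After a 2.62-fold drop of coverage over 14 bases, from chr15:8635137 to chr15:8635123, the next 36 positions had a median of -0.01. After a further 3.12-fold drop over 7 bases, the last 25 positions had a median of 0.03. The steps are local, since coverage was uneven within blocks. The first block ended at a mean of 6124 scaled reads. The third began at 767 and ended at 103, with medians of 1253 to 1438 in the single libraries. In scaled reads, the first block had medians of 3312 and 3423 at 0 h against 2978 and 2605 at 6 h, and the second 2340 and 2253 at 0 h against 2148 and 2371 at 6 h. The groups thus overlapped in the second block and not in the first. Of 9 members with at least 10 positions in the 3′UTR, 3 had such a step, the others being Slc2a3 and Slc25a4. In Slc2a3 the blocks rose alike (1.46 over 2 positions and 1.31 over 32), while those of Slc25a4 differed. Its first 10 positions had a median of -0.61 (-0.65 to -0.54), and after a 2.14-fold drop over 15 bases the other 6 had a median of -0.09 (-0.14 to -0.01). These 16 positions were thinly covered, with block medians of 43.7 to 195 scaled reads in the single libraries, whereas the gene as a whole was not called.

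Methylation at the member positions was low. Of 1461 positions, 1424 had a mean level below 1%, and 1384 were below 1% in every library. The median coverage of a member position was 2339 to 3716 reads in the single libraries. Over all member positions, 0.131% and 0.130% of the reads were unconverted (0 h), 0.130% and 0.126% (2 h), and 0.192% and 0.125% (6 h). The 6 h replicate 1 library was above all others, and the rest were nearly level. The same share over the nuclear shared positions of all genes was 0.114%, 0.112%, 0.111%, 0.111%, 0.155%, and 0.115% in this order. Both shares are conditional on an unconverted read in each library.

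A mean level of 1% or more was found at 37 positions in 11 members, of which 19 lay in Slc25a4, and 2 reached 10%. These 2, in Slc25a4 and Slc25a23, were also the only member positions that passed the standard filter in both replicates of a time point.

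**Figure D4:**
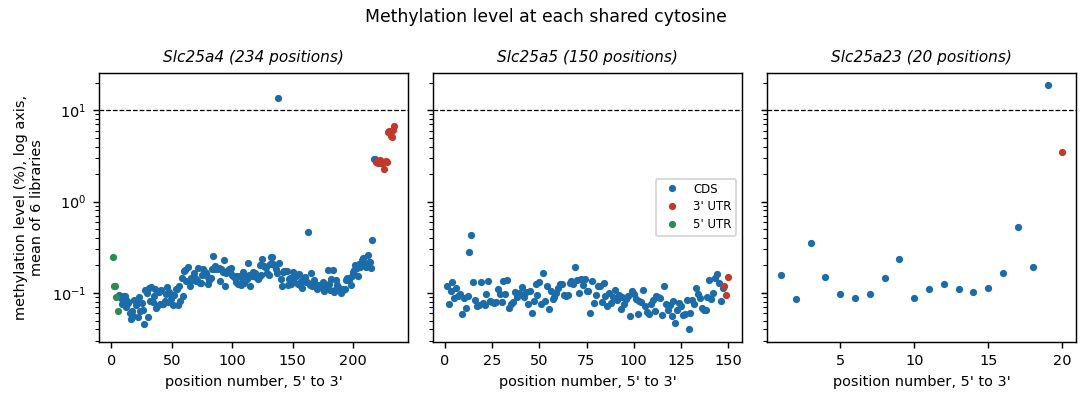
Mean methylation level over the 6 libraries at each shared cytosine in order from 5′ to 3′ on a log axis, with the 10% level dashed. In Slc25a4, 1 cytosine of the CDS stands above the dashed line and a run at the 3′ end lies at a few percent, and in Slc25a23 1 cytosine of the CDS stands out.

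The Slc25a4 cytosine in the window actgtctcacCaagatcttca at 0 h was unconverted in 379 of 4131 reads (9.17%, exact 95% interval 8.31% to 10.1%) and in 350 of 3509 reads (9.97%). After KCl the levels were 15.2% and 17.2% (2 h) and 16.4% and 14.1% (6 h), from 3648 to 4766 reads. Both groups after KCl lay above 0 h and overlapped each other. The level rose by 6.60 percentage points at 2 h and by 5.63 at 6 h by Fisher's exact test on summed reads (adjusted p = 2.18e-32 and 1.28e-23), and 6 h vs. 2 h gave -0.97 (adjusted p = 0.433). Without 6 h replicate 1 the change at 6 h vs. 0 h was 4.48 (adjusted p = 1.14e-10) and that at 6 h vs. 2 h -2.12 (adjusted p = 0.0536). The site passed the filter at 2 h and at 6 h but not at 0 h, and so entered this test through the time points at which it was high. Among positions chosen by their mean level over all 6 libraries, as given further on, it had adjusted p = 6.62e-32 and 3.97e-23. By this test 9.45% of all 2824 sites passing the standard filter were called at 2 h and 7.23% of 2837 at 6 h, and the reads it counts are not independent molecules. A quasi-binomial model, which includes the spread between replicates, gave unadjusted p = 0.00982 and 0.0191 and adjusted p = 0.184 and 0.434, and limma gave adjusted p = 0.804 and 0.998. With the replicate numbers as strata, the Cochran-Mantel-Haenszel test, which also counts reads and leaves out the spread between replicates, gave adjusted p = 2.08e-32 and 6.29e-24. The coverage of the gene was not called, as given above. Intervals and Fisher's test cover counting error only.

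Slc25a5 could be compared at the same place, since its transcript holds a matching window, actgcctggtTaagatctaca, shown to set the bases of both genes side by side, with the capital at the aligned base. Counted from 1 at the 5′ end of the window, with the base of Slc25a4 first, the differences are T5C, C8G, A9G, C10T, C11T, and T19A. The 5 listed cytosines of Slc25a5 in this window had levels of at most 0.329% in any library, at 2286 or more reads. The measured base is the one of C11T.

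The Slc25a23 cytosine, gcccgcaggtCtccatggtgg, had levels of 14.1% and 21.8% (0 h), 15.3% and 20.6% (2 h), and 22.1% and 18.3% (6 h), from 239 to 399 reads. The groups overlapped, and no comparison was called (differences of 0.03, 2.27, and 2.24 percentage points, adjusted p = 1, 0.676, and 0.734). Without 6 h replicate 1 the differences at 6 h were 0.39 vs. 0 h and 0.36 vs. 2 h. It is the first base of CTCCA, the motif known from targets of NSUN6. Read on the transcript strand with the measured cytosine first, CTCCA was present at 11 of 1461 member positions (0.753%), at 0.827% of the shared positions of all genes, and at 0.680% of the positions passing the standard filter. The other 10 member positions with CTCCA had mean levels of 0.0623% to 0.706%. CNGGG, known from targets of NSUN2, was present in the same reading at 46 member positions (3.15%), against 2.04% of all shared positions and 4.86% of those passing the filter. These are descriptions of letters and not of enzyme sites.

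The other 18 positions of Slc25a4 with 1% or more lay together in 128 bases at its 3′ end (chr8:46207379-46207506), 16 in the 3′UTR and 2 in the CDS. Their coverage was only 28 to 212 reads, and their median level was 3.68% and 3.15% (0 h), 2.25% and 0.827% (2 h), and 5.96% and 1.87% (6 h). The replicates differed by as much as the groups, and neighbouring cytosines share reads.

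At positions with a mean level of 1% or more, a test chosen after the levels were seen was run over all 9798 such positions. Of the 37 member positions, 3 were higher and none lower at 2 h (8.11%), against 9.52% of all positions called, 7.25% higher and 2.28% lower. For 6 h vs. 0 h, 4 were higher and none lower (10.8%), against 11.4%, 8.63% higher and 2.73% lower. For 6 h vs. 2 h, 3 were higher and none lower (8.11%), against 12.6%, 7.51% higher and 5.08% lower. The quasi-binomial model and limma called none of them, with 7, 3, and 3 at an unadjusted p under 0.05 for the former and 5, 1, and 1 for the latter. Besides the Slc25a4 site in the CDS, the called positions were in Slc25a11, Slc12a5, Slc38a10, Slc25a22, and the 3′ end of Slc25a4, and they were named after their values were seen.

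The Slc25a11 and Slc12a5 positions lay in members whose coverage fell at 6 h. The Slc25a11 cytosine, ttaggattgcCagggaagaag, which holds CNGGG, had levels of 3.97% and 4.24% (0 h), 7.17% and 5.31% (2 h), and 14.5% and 6.87% (6 h), from 731 down to 291 reads. The highest value was that of the library with the most unconverted reads. The rise of 6.58 percentage points at 6 h vs. 0 h (adjusted p = 2.16e-06) became 2.77 without that library (adjusted p = 0.291), and the 4.45 at 6 h vs. 2 h (adjusted p = 0.0065) became 0.64 without it (adjusted p = 1) and 3.52 without 2 h replicate 2 (adjusted p = 0.164). The Slc12a5 cytosine, ttggcacgatCgagatcctgc, had levels of 1.53% and 2.47% (0 h), 2.84% and 4.66% (2 h), and 7.38% and 10.3% (6 h), from 460 down to 146 reads. The groups did not overlap and followed each other upwards, and the 6 h replicate 1 library was the lower of its pair. It rose by 6.83 percentage points at 6 h vs. 0 h (adjusted p = 3.39e-05), and by 8.28 without 6 h replicate 1 (adjusted p = 0.000475). At 6 h vs. 2 h the change of 5.07 (adjusted p = 0.0167) was not called without 2 h replicate 1 (4.16, 0.222), 6 h replicate 1 (6.52, 0.0502), or 6 h replicate 2 (3.63, 0.155).

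The Slc38a10 cytosine, gcctctcatcCagagcaggag, had levels of 2.98% and 3.78% (0 h), 7.83% and 5.45% (2 h), and 9.68% and 6.49% (6 h), from 601 to 771 reads. Both groups after KCl lay above 0 h and overlapped each other. It rose by 3.26 percentage points at 2 h (adjusted p = 0.0017) and 4.70 at 6 h (adjusted p = 7.45e-06), and by 3.11 at 6 h without 6 h replicate 1 (adjusted p = 0.0437). At 2 h it was not called without 0 h replicate 1 (2.86, 0.146) or 2 h replicate 1 (2.07, 0.209). The Slc25a22 position (0.98 percentage points at 2 h, adjusted p = 0.0401) lost its call without 0 h replicate 2 (0.35, 0.899), 2 h replicate 1 (1.16, 0.0637), or 2 h replicate 2 (0.81, 0.252). The position at the 3′ end of Slc25a4 (3.70 at 6 h vs. 2 h, adjusted p = 0.031) lost it without 2 h replicate 1 (3.84, 0.163), 2 h replicate 2 (3.56, 0.133), or 6 h replicate 1 (-0.02, 1).

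Among Slc genes outside the member rule, 5 had a cytosine that passed the standard filter in both replicates of a time point, and with the 2 of members this made 7 Slc sites. Of these 7, 3 were higher and none lower at 2 h vs. 0 h, 2 higher and none lower at 6 h vs. 0 h, and 1 higher and none lower at 6 h vs. 2 h. The sites of Slc25a4, Slc39a1, and Slc35e1 did not pass at 0 h and entered only through later time points at which they were high, so the filter fixes part of this direction and the counts are a description. Among all sites tested, which entered in the same way, 7.72% were higher and 1.74% lower at 2 h, 5.32% and 1.90% at 6 h vs. 0 h, and 6.05% and 5.67% at 6 h vs. 2 h, where 11.7% were called in all. Of the 3089 positions passing the filter, 864 were mitochondrial. Only 484 were nuclear with no other such position within 10 bases, as the 7 Slc sites were. These shares are thus not those of like sites alone.

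Slc43a2, a carrier of branched-chain and other large neutral amino acids, had the largest level change of the 7 sites. Its cytosine in the 3′UTR, tttctgttacCaggagcatct, was at 21.2% and 22.1% (0 h), 54.7% and 43.3% (2 h), and 39.4% and 22.6% (6 h). Both 2 h libraries lay above both 0 h libraries, and the 6 h libraries spread over the range between. The coverage at this cytosine fell from 231 and 163 reads (0 h) to 75 and 60 (2 h) and 33 and 31 (6 h), and the intervals at 6 h were wide (exact 95% interval 22.9% to 57.9% and 9.59% to 41.1%). The level rose by 27.4 percentage points at 2 h (adjusted p = 1.04e-07), while 6 h vs. 0 h gave 9.34 (adjusted p = 0.49), which became 0.93 without 6 h replicate 1 and 17.7 without 6 h replicate 2. At 6 h vs. 2 h the change was -18.0 (adjusted p = 0.0996), with adjusted p = 0.0363 over isolated nuclear sites, those with no other passing site within 10 bases. This change was -26.4 without 6 h replicate 1 and -9.61 without 6 h replicate 2. Leaving out a library kept the call at 2 h, with changes of 21.7 to 33 percentage points, and the quasi-binomial model gave adjusted p = 0.184.

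Slc35e1, a carrier without a settled substrate, passed the filter at 6 h alone, so that the time point at which it is high also chose it. Its 3′UTR cytosine, ggtgccaaagCagggcctggg, which holds CNGGG, was at 4.67% and 5.51% (0 h), 6.41% and 5.95% (2 h), and 15.1% and 11% (6 h), from 345 to 471 reads. Both 6 h libraries lay above all others. The change was 7.96 percentage points at 6 h vs. 0 h (adjusted p = 1.08e-06) and 6.87 at 6 h vs. 2 h (adjusted p = 8.12e-05). Without 6 h replicate 1 the first was 5.92 (adjusted p = 0.00775) and the second 4.83 (adjusted p = 0.0554). The quasi-binomial model gave adjusted p = 0.480 and 0.572. Among positions chosen by their mean level over all 6 libraries, Fisher's exact test gave adjusted p = 1.05e-06 and 9.34e-05.

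Slc39a1, a zinc importer, was at 6.68% and 6.23% (0 h), 10.0% and 11.8% (2 h), and 8.90% and 8.97% (6 h) in its CDS cytosine gttccccttgCaagagttcat. It passed the filter at 2 h alone, where it is high, and the change of 4.45 percentage points at 2 h (adjusted p = 0.042) was lost without 0 h replicate 1 (4.68, 0.187), 0 h replicate 2 (4.23, 0.201), 2 h replicate 1 (5.37, 0.0704), or 2 h replicate 2 (3.54, 0.249). Slc25a51, which brings NAD into mitochondria, was at 16.2% and 13.9% (0 h), 20.5% and 19.6% (2 h), and 21.2% and 19.3% (6 h) in cggggcatctCaggctcattc, and did not pass (adjusted p = 0.174 and 0.128), but was called over isolated nuclear sites (adjusted p = 0.0399 and 0.0382). For Slc25a51 the change at 6 h vs. 0 h was 5.20 percentage points, and 4.26 without 6 h replicate 1. The test over isolated sites was not run without that library. Slc6a7, a proline transporter of synapses, was at 18.1% and 11.8% (0 h), 12.7% and 11.9% (2 h), and 18.8% and 19.3% (6 h) in its 5′UTR. Both 6 h libraries lay above all others, and 0 h and 2 h overlapped. The change of 6.74 percentage points at 6 h vs. 2 h did not pass (Fisher's exact test, unadjusted p = 0.0456, adjusted p = 0.218, and quasi-binomial adjusted p = 0.247).

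**Figure D5:**
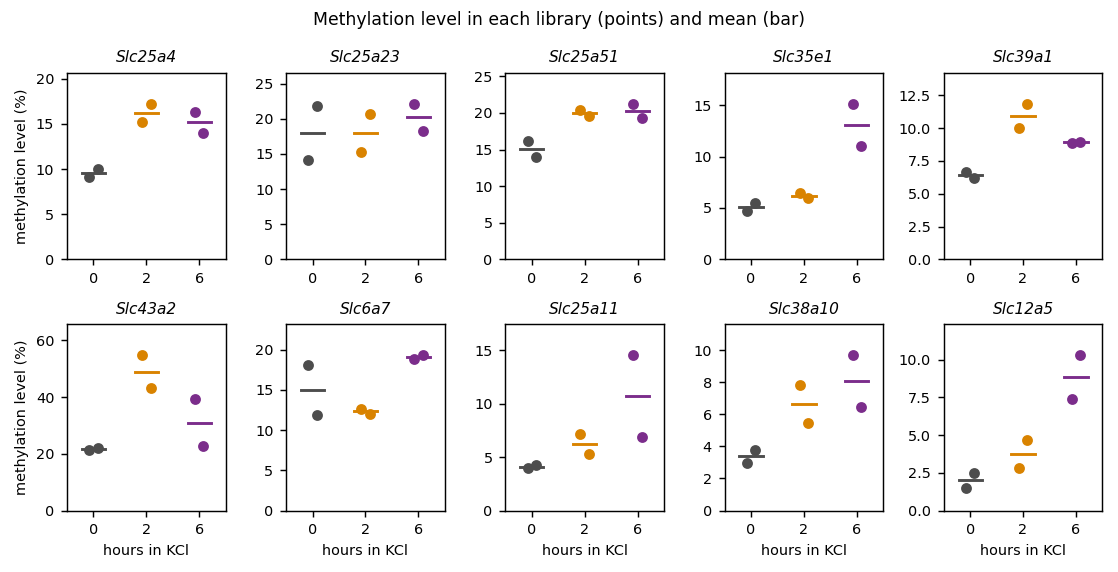
Methylation level in each library (points) with the mean of both replicates (bar) at cytosines of Slc genes by hours in KCl, each on an axis that starts at 0. The Slc25a4 level is near 10% at 0 h and near 15% after KCl, and Slc43a2 is highest at 2 h.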

How the data were processed

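RNA BS-seq of poly(A) RNA was analysed in 6 libraries, 2 biological replicates for each of the 3 time points. The authors trimmed reads with Trim Galore, aligned them to GRCm38 (mm10) with meRanTK, kept unambiguous reads, and called cytosines per library with meRanCall, without pooling. The deposited lists give the count of covering and of unconverted reads per cytosine as raw counts, and the methylation level as a fraction of reads, as deposited rounded to 3 decimals. Levels were recomputed from the counts.

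Genes with 5 or more shared positions were tested on the median coverage with edgeR 4.0.16 (TMM, quasi-likelihood, all time points in 1 fit). Sites passing the standard filter in both replicates of a time point were tested with Fisher's exact test (two-sided) on summed reads. Adjusted p-values are Benjamini-Hochberg. Alternatives used DESeq2 1.42.0, limma 3.58.1, a quasi-binomial model, and other filters. The tests were also run on simulated data. For sites, limma recovered no change, the quasi-binomial model recovered few where the replicates varied beyond counting error, and Fisher's test then also called unchanged sites. Python 3.11.15 and R 4.3.3 were used.

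The members and lists were chosen with earlier results of these data known. Named were members with known roles, the 6 largest changes per comparison and direction whose libraries did not overlap, Slc genes with a site passing the filter, and the deepest members per role group. Others are named to account for the members, and some genes counted here are not reported by name or value. Windows were read from the GRCm38 reference. The caller's scores were not used.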

Additional observations from a re-analysis of the deposited data

How the results depend on the processing

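Of 37 called coverage changes of members, 23 passed under every alternative that tested them, 14 were lost under at least 1, and none reversed. The counts of members changed at 2 h vs. 0 h, 6 h vs. 0 h, and 6 h vs. 2 h were 7, 17, and 13. They were 3, 8, and 7 among the 13 members with 20 positions or more, where fewer genes were tested. They were 6, 17, and 13 with the replicate block, 7, 17, and 14 with DESeq2, and 6, 17, and 13 with limma. Leaving out 1 library gave 4 to 8, 12 to 17, and 8 to 14, with 4 at 2 h vs. 0 h without 0 h replicate 1 and 8 at 6 h vs. 2 h without either 6 h library. Whether replicates were paired across time points was not settled. The correlations of same-numbered deviations were 0.404 (0 h and 2 h), -0.233 (0 h and 6 h), and -0.263 (2 h and 6 h). Their signs depend on how the replicates were numbered at each time point. If the numbers at 6 h did not match the others, the replicate block would join the wrong libraries.

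For the 7 sites, the counts of 3, 2, and 1 became 1, 0, and 0 with a difference of at least 10 percentage points required, and 0, 0, and 0 with limma and with the quasi-binomial model. They were 3, 2, and 1 with the replicate block and 4, 3, and 2 over isolated nuclear sites, where Slc25a51 was added at 2 h and 6 h vs. 0 h, and the added call at 6 h vs. 2 h was a fall of Slc43a2 (-18.0 percentage points, adjusted p = 0.0363). Leaving out 1 library gave 2, 2, and 0 to 1, with 0 without 6 h replicate 1. For the 37 low-level positions, chosen after seeing the data, the counts of 3, 4, and 3 became 0, 0, and 0 with the quasi-binomial model and limma and 4, 4, and 3 with the replicate block. Leaving out 1 library gave 1 to 3, 3 to 5, and 0 to 2, with 1 at 2 h vs. 0 h and at 6 h vs. 2 h without 2 h replicate 1, 1 at 6 h vs. 2 h without 2 h replicate 2, and 0 without 6 h replicate 1. The cause of these losses was not tested. Over all sites tested, Fisher's test called 267, 205, and 343, the quasi-binomial model 3, 0, and 0 (405, 222, and 234 at an unadjusted p under 0.05), limma none (211, 88, and 155), and the replicate block 294, 291, and 536. The mean unconverted share at member positions was 0.139%, and 0.128% without 6 h replicate 1. Since limma recovered none of the known changes when tested at this number of libraries, its counts of 0 at sites say nothing about stability. Of the 7 sites, depth was lowest at that of Slc43a2, where the 6 h levels rest on 33 and 31 reads.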
